A study of Mus musculus with 39 samples.

Results

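The acrosome is the secretory cap that forms over the nucleus of the spermatid and carries what a sperm needs to reach and bind the egg. The 10 genes described here encode proteins of the acrosome, of the membranes that hold it and of the sperm surface that meets the egg: Acr, Acrbp, Acrv1, Spaca7, Spam1, Spaca1, Dpy19l2, Zpbp, Zpbp2 and Izumo1. They were taken by symbol from the gene list of a single-cell RNA-seq experiment on mouse testis and are 10 of its 32285 genes, each found on 1 row. The study asked what the loss of Kdm6a (also called Utx) does in the male germ line; KDM6A removes the repressive mark H3K27me3 from histone H3. Single cells came from whole dissociated testis of 1 control (genotype Kdm6a fl/y; Cre-) and 1 cKO (Kdm6a fl/y; Ddx4-Cre+), in which Cre under the germ-cell gene Ddx4 deletes the floxed allele, so that somatic cells keep it. Both groups carry the floxed allele. ATAC-seq, which maps open chromatin, and CUT&Tag for H3K27me3 were made from sorted cKIT+ spermatogonia of the same genotypes, each with 2 control and 3 cKO libraries, plus 1 control library with IgG. The labels used here give neither the age of the mice nor how many mice each library holds. With 1 single-cell library per genotype there is no replicate and no test between genotypes: every interval below is a 95% interval that covers counting error only.

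Male germ cells divide as spermatogonia, pass through meiosis as spermatocytes and then differentiate as haploid spermatids, first round and later elongating. Golgi-derived vesicles begin to build the acrosome around the end of meiosis, and it spreads over the nucleus in the round spermatid. Transcription ceases as the nucleus condenses in elongating spermatids, so many sperm proteins are made from RNA stored earlier.

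The control library held 229882646 UMIs (unique RNA molecules counted) and the cKO library 172368722. Barcodes with at least 3000 UMIs were taken as cells, 11252 in the control with a median of 8411 UMIs and 8520 in the cKO with a median of 8499. Kdm6a itself had 129 UMIs in control early spermatocytes (14.2 CPM, its UMIs per 1000000 UMIs of the stage) and 7 in the cKO (0.995 CPM), and 55 against 11 UMIs in spermatogonia, while in Sertoli cells it had 13 and 22; these 3′ tags check the deletion only if they fall in the floxed exons, which the labels do not place. Cells were placed in stages by marker genes that include none of the 10 genes, and the gene with the highest fold in each gate was Ptma (spermatogonia), Sycp1 (early spermatocytes), 4930581F22Rik (late spermatocytes), 1700001P01Rik (round spermatids) and Prm1 (elongating spermatids). Late spermatocytes numbered 2513 in the control and 2095 in the cKO, and round spermatids 1192 and 1201. Elongating spermatids numbered 5842 and 3941, early spermatocytes 1095 and 774, and spermatogonia 303 and 234. Of all 19772 cells, 3118 lay near the boundary between 2 stages, and 30 barcodes occurred in both libraries. Among round spermatids 391 of 1192 control and 366 of 1201 cKO cells lay near such a boundary. Markers of other stages and free RNA move with several results and are given beside them.

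Sequences upstream of the start sites are shown for 4 of the genes, picked by the chromatin and timing results below. A link between the sequences and those results was not tested. Zpbp2 and Dpy19l2 had an ATAC peak at the start site in every library and an H3K27me3 peak in some or all. Izumo1 and Spaca1 had an ATAC peak in 1 and 2 of 5 libraries and were highest in round spermatids. Each run is the 250 bases before the start site of the promoter table used, 5′ to 3′ on the strand of the gene, from RefSeq on build GRCm38.p6: chr11:98550847-98551096 (plus strand) for Zpbp2, chr9:24696294-24696543 (minus) for Dpy19l2, chr7:45621561-45621810 (plus) for Izumo1 and chr4:34050066-34050315 (minus) for Spaca1. A start site of that table can lie inside the span of the gene given below: 164 bases of the Dpy19l2 run and 2 of the Spaca1 run do so, and all 250 of the Zpbp window. Capitals mark TGACG, the core of the cAMP response element bound by factors such as CREM, and AACTG, a core bound by MYB factors such as MYBL1 (A-MYB), each on either strand.
Zpbp2: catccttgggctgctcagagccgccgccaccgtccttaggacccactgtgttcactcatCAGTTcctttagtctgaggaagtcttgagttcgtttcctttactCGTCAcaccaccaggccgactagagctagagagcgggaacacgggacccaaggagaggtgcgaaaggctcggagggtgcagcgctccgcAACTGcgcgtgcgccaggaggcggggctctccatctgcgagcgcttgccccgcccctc
Dpy19l2: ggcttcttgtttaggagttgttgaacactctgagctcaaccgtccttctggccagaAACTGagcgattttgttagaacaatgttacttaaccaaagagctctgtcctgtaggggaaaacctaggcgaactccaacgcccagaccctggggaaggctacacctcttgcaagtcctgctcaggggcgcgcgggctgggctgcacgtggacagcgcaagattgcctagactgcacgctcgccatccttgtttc
Izumo1: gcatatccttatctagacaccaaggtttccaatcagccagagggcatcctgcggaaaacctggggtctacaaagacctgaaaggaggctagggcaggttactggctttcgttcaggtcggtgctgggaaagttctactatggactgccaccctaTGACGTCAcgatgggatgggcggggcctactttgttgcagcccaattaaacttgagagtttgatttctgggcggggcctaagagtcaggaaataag
Spaca1: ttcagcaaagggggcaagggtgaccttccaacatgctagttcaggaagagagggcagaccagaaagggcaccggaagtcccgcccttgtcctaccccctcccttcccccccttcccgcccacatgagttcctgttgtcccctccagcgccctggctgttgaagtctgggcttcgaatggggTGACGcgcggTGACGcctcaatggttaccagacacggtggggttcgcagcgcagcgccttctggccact
The full palindrome TGACGTCA stood once, in Izumo1, with its first base 96 bases before the start, and it contains the TGACG core on both strands. TGACG occurred in 4 of the 9 genes found in that table (all but Acr: Acrbp, Spaca1, Zpbp2 and Izumo1), against 19.8% of 27025 genes, and the palindrome in 1 of 9 against 1.77%. AACTG occurred in 4 of 9 (Spaca7, Zpbp2, Spam1 and Dpy19l2), against 42.6%. Acrv1 and Zpbp, whose sequences are not printed, had neither. The matches describe letters and are not binding sites.

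The 10 genes had their highest levels in round spermatids or late spermatocytes in both libraries, and they fell into an early and a late set by when they were first abundant, a division drawn after the values had been seen. Together they made up 2133 CPM of control late spermatocytes and 3923 CPM of control round spermatids, and 2274 and 3968 CPM in the cKO. The other 3 stages held far less, with sums from 646 to 821 CPM in spermatogonia, early spermatocytes and elongating spermatids of both libraries, beside 513 CPM (control) and 658 CPM (cKO) in Leydig cells and 1017 and 900 CPM in Sertoli cells, which are somatic and should lack these RNAs. In both libraries 7 genes were highest in round spermatids and 3 (Acrbp, Zpbp2 and Dpy19l2) in late spermatocytes, and for no gene did the intervals of its 2 highest stages overlap. UMIs are counted from the 3′ end of each RNA, so CPM can be set side by side between genes without a correction for length. Gene positions below are from RefSeq on GRCm38.p6.

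**Figure D1:**
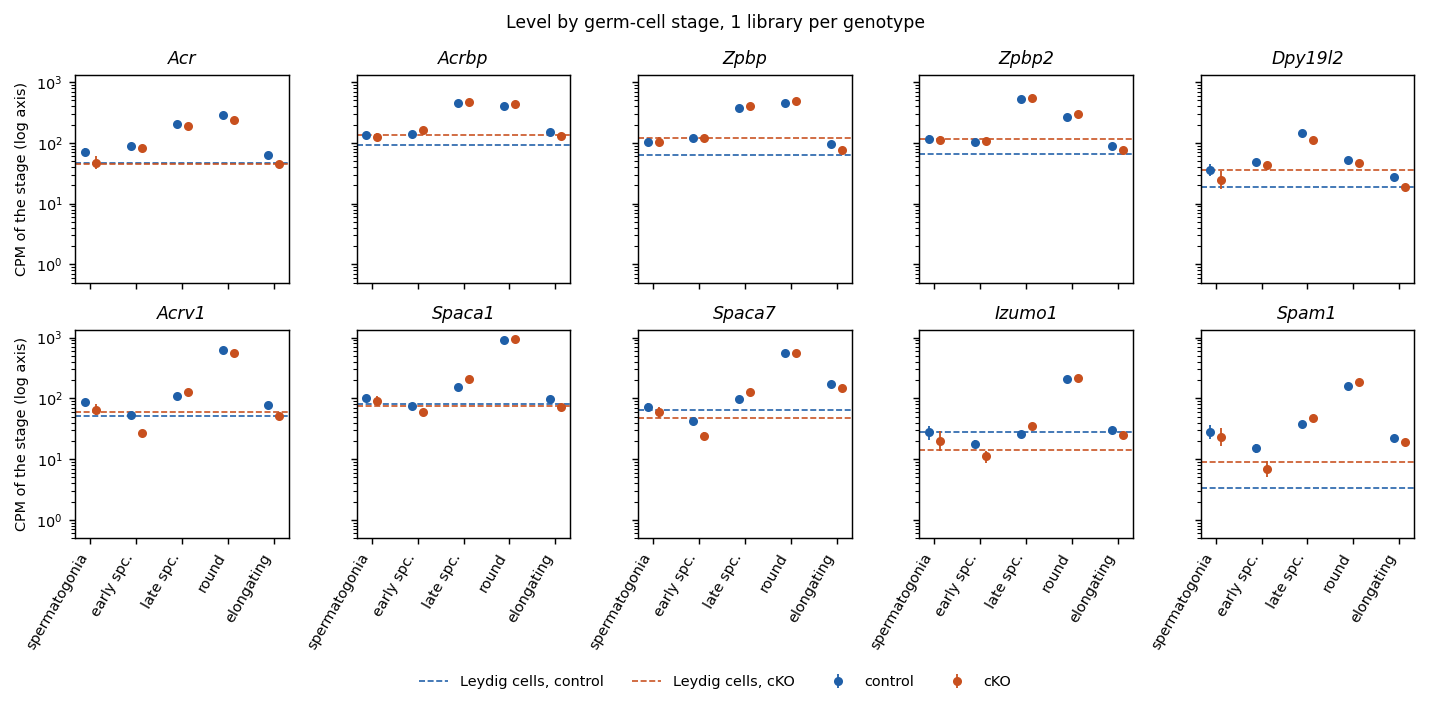
CPM of each gene (log axis) in 5 germ-cell stages of the control and the cKO library; bars are 95% counting intervals and dashed lines give the level in Leydig cells. The upper row holds the genes already abundant in late spermatocytes (Zpbp2 at 528 and 539 CPM), the lower row those far higher in round spermatids than in late spermatocytes (Spaca1 at 919 and 933 CPM).

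Among the enzymes and contents of the acrosome, Acr (chr15:89568326-89578853), the serine protease acrosin, had 206 CPM in control late spermatocytes (10704 UMIs, 95% interval 202 to 210) and 287 CPM in round spermatids (5856 UMIs, 280 to 294). In the cKO it had 187 CPM (183 to 192) and 239 CPM (233 to 246). Acr was thus lower in the cKO in both stages, and the intervals of the libraries did not overlap in either. Acrbp (chr6:125049927-125063265), which binds the acrosin precursor, had 454 CPM (448 to 460) in control and 474 CPM (467 to 480) in cKO late spermatocytes. In round spermatids it had 410 CPM (402 to 419) and 440 CPM (431 to 449). Acrbp was thus higher in the cKO in both stages, and its intervals did not overlap either. Within the main clusters of these stages, given below, Acrbp had ratios whose intervals included no change. It was the gene whose levels in these 2 stages were most alike.

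Acrv1 (SP-10, chr9:36693220-36698845), a protein of the acrosomal matrix, had 614 CPM in control round spermatids (603 to 625) and 552 CPM in the cKO (542 to 562), against 109 and 129 CPM in late spermatocytes. Spaca7 (chr8:12573036-12600739), an acrosomal protein released when the acrosome opens, had 552 CPM in control and 558 CPM in cKO round spermatids. It kept more RNA than the other late genes in elongating spermatids, with 171 CPM in the control and 147 CPM in the cKO. Spam1 (PH-20, chr6:24791188-24801048), the surface hyaluronidase that loosens the cumulus matrix around the egg, had 160 CPM (155 to 166) in control and 183 CPM (177 to 189) in cKO round spermatids. Its background was the lowest of the 10: 3.29 and 9.12 CPM in Leydig cells.

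Of the genes for membranes, Spaca1 (chr4:34024872-34050067), which encodes a protein of the inner acrosomal membrane needed for the acrosome's shape, was the most abundant of the 10 in round spermatids, with 919 CPM (906 to 933) in the control and 933 CPM (919 to 946) in the cKO. The libraries' intervals overlapped. Dpy19l2 (chr9:24557047-24696457) encodes a protein of the inner nuclear membrane that anchors the acrosome to the nucleus, and its loss gives round-headed sperm. It had the opposite course: 148 CPM (144 to 151) in control and 113 CPM (109 to 116) in cKO late spermatocytes, then 52.6 CPM (49.5 to 55.9) and 47.1 CPM (44.1 to 50.2) in round spermatids. In late spermatocytes the libraries' intervals lay apart, and in round spermatids they overlapped slightly.

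The paralogs Zpbp (chr11:11279624-11464223) and Zpbp2 (chr11:98551097-98558665), which encode acrosomal proteins that bind the zona pellucida around the egg, did not share a peak. Zpbp had 375 CPM (369 to 380) in control and 412 CPM (406 to 419) in cKO late spermatocytes. In round spermatids it had 450 CPM (441 to 459) and 498 CPM (489 to 508). Zpbp was thus higher in the cKO in both stages with intervals apart. Its ratios within the main clusters, given below, lay in both directions. Zpbp2 had 528 CPM (522 to 534) and 539 CPM (532 to 546) in late spermatocytes and 269 CPM (262 to 277) and 305 CPM (297 to 313) in round spermatids. Late spermatocytes thus had 196% of the round spermatid level of Zpbp2 in the control and 177% in the cKO, and for Zpbp 83.2% and 82.7%. Izumo1 (chr7:45621811-45627242), the sperm ligand of the egg receptor JUNO that is required for gamete fusion, had 207 CPM (201 to 213) in control and 212 CPM (206 to 219) in cKO round spermatids, against 26.0 and 34.6 CPM in late spermatocytes.

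Outside these stages the signal was set beside that in somatic cells. After every cell was thinned to 3000 UMIs, the 10 genes were seen in 17.5% to 91.4% of control round spermatids and 13.2% to 93.3% of those of the cKO. Spaca1 was found in 91.4% of control (89.7% to 93.0%) and 93.3% of cKO round spermatids (91.8% to 94.7%), Izumo1 in 44.8% and 46.5%, and Spam1 in 35.8% and 40.4%. In Leydig cells the same genes were found in 1.01% to 16.2% of cells (control, median 8173 UMIs before thinning) and 3.09% to 23.7% (cKO, 6705 UMIs), and in Sertoli cells in 8.02% to 44.9% (4115 UMIs) and 6.71% to 36.0% (6182.5 UMIs).

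Sertoli cells gave the higher background, and 129 of the 187 gated in the control and 72 of 164 in the cKO came from a cluster led by Defb19 that scored highest as elongating spermatids. In spermatogonia no gene in the control and 1 in the cKO (Acr) had a larger share of cells than Sertoli cells did. In early spermatocytes this held for 1 gene in the control (Dpy19l2) and 3 in the cKO (Acr, Acrbp and Dpy19l2). In elongating spermatids it held for Spaca7 and Dpy19l2 in the control and for Acr and Spaca7 in the cKO. The other shares in these stages were at or below the Sertoli share. Set against Leydig cells, 10 of 10 genes in the control exceeded the background in each of these stages, and 9, 8 and 7 of 10 in the cKO. In late spermatocytes 6 of 10 genes exceeded the Sertoli share in the control (not Acrv1, Spaca1, Spaca7 and Izumo1) and 10 of 10 in the cKO. The Sertoli shares of these 4 were lower in the cKO: Acrv1 30.5% and 17.7%, Spaca1 34.8% and 28.0%, Spaca7 26.7% and 21.3%, Izumo1 12.8% and 6.71%. In late spermatocytes they were 28.1% and 28.7%, 32.7% and 38.2%, 24.9% and 28.1%, and 9.07% and 10.4%. In round spermatids all 10 genes exceeded the Sertoli share in both libraries. Round spermatids carried a median of 6 of the 10 RNAs per cell in each library at 3000 UMIs, late spermatocytes 4 and Leydig cells 1. At least 5 of the 10 were found in 83.8% of control and 85.5% of cKO round spermatids. Unthinned, shares past 50% in round spermatids were found for 10 genes in the control and 9 in the cKO, against 7 and 6 after thinning.

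The order of appearance was followed by ranking late spermatocytes and round spermatids on their stage markers and cutting them into 10 bins, an arrangement chosen after the data had been seen. Of the 10 genes, 5 were abundant from the first bin (the early set) and the other 5 (the late set) were almost absent there. In bin 1, Zpbp2 had 642 CPM in the control and 658 in the cKO, Acrbp 522 and 550, Zpbp 407 and 424, Acr 203 and 183, and Dpy19l2 169 and 136. These values were between 65.4% and 100% of each gene's highest bin in the control. Izumo1 had 4.01 and 2.97 CPM in bin 1, Spam1 3.85 and 3.08, Spaca7 12.5 and 10.8, Acrv1 13.7 and 12.2, and Spaca1 19.3 and 15.7, or 1.43% to 2.08% of the highest bin in the control and 1.18% to 1.98% in the cKO.

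The late genes did not all peak in the same bin. In the control Acrv1 was highest in bin 8 (669 CPM), Spaca1 in bin 9 (993 CPM), Spaca7 in bin 9 (599 CPM) and Izumo1 in bin 10 (232 CPM). Spam1 had 270 CPM in bin 8 and 50.7 CPM in bin 10. In the cKO Spam1 had 236 CPM in bin 8 and 65.9 CPM in bin 10, and Izumo1 252 CPM in bin 10. There Acrv1 was highest in bin 9 (616 CPM), as were Spaca1 (990 CPM) and Spaca7 (604 CPM). With 5 bins Acrv1, Spaca1, Spaca7 and Izumo1 were all highest in bin 5 in both libraries, and Spam1 in bin 4. Along this axis intervals lay apart between the libraries in 3 of 10 bins for Spaca1 and 1 for Spaca7, higher in the cKO, in 0 for Izumo1, in 4 for Acrv1, lower in the cKO, and in 3 for Spam1, 1 lower and 2 higher. Dpy19l2 fell from 169 to 23.9 CPM between bins 1 and 10 in the control and from 136 to 22.7 CPM in the cKO. Zpbp2 fell to 157 and 159 CPM in bin 10.

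**Figure D2:**
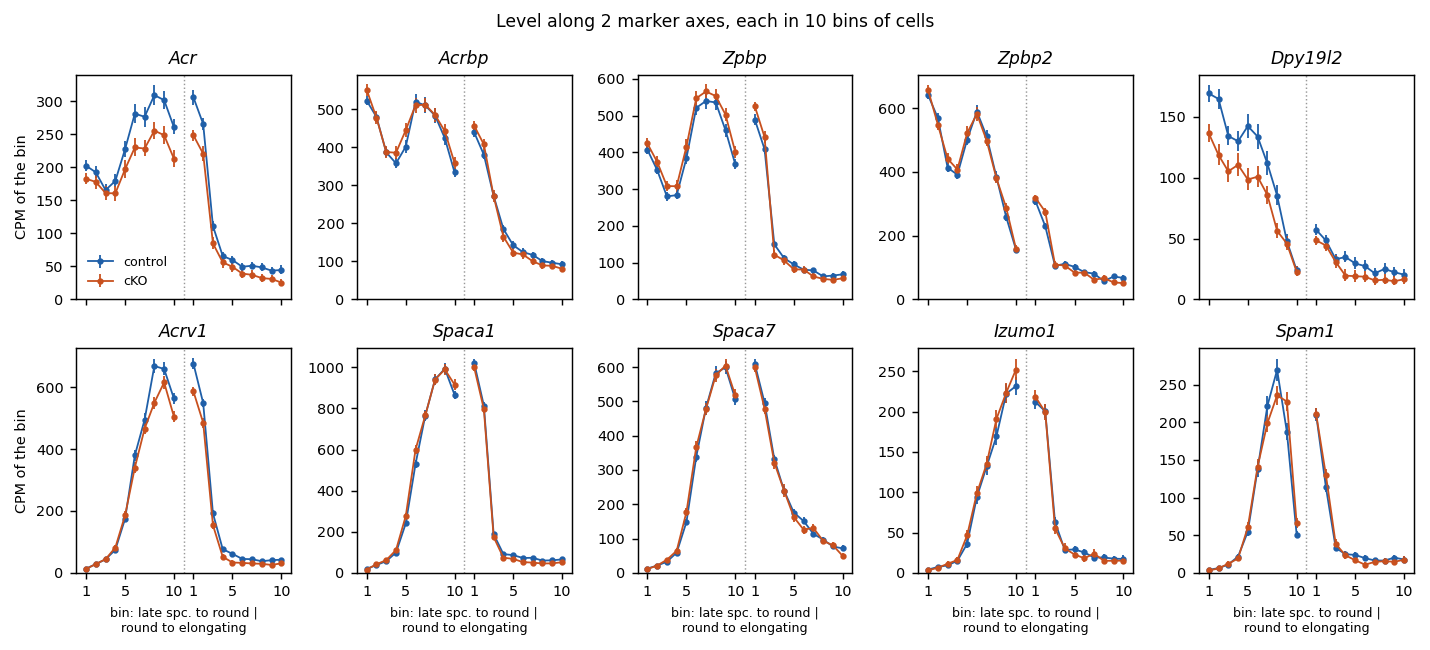
CPM of each gene in 10 bins of cells from late spermatocytes (spc.) to round spermatids (left of the dotted line) and in 10 bins from round to elongating spermatids (right), with 95% counting intervals; blue is control and orange cKO. The lower row starts near 0 (Spam1 at 3.85 and 3.08 CPM) and the upper row does not; Acr and Dpy19l2 lie lower in the cKO in 10 of 10 bins on each side.

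Along the second axis, from round to elongating spermatids, all 10 genes were highest in bin 1 in both libraries. Spaca1 fell from 1023 CPM in bin 1 to 188 CPM in bin 3 in the control and from 1001 to 174 CPM in the cKO, which left 18.4% and 17.4%; it was lower in the cKO in 10 of 10 bins, 5 of them with intervals apart. Spaca7 fell more slowly, from 609 to 332 CPM (54.4% left) and from 599 to 321 CPM (53.6%), and was lower in the cKO in 8 of 10 bins, 2 of them apart. Acrv1 was lower in 10 of 10 bins of this axis, 8 of them apart. Acrbp had 61.9% and 59.4% left in bin 3, Izumo1 29.7% and 25.3%, and Spam1 15.8% and 18.3%. The median depth of the cells fell from 14812 UMIs in bin 1 to 6222 in bin 3 in the control and from 13207 to 8140 in the cKO, so CPM follows the share of a gene in the remaining RNA and not its amount per cell.

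Between genotypes, no gene of the 10 differed by over 1.5-fold in late spermatocytes or in round spermatids, the stages in which they were highest. With free RNA subtracted, as described below, Spaca7 (0.72) and Izumo1 (0.68) passed that fold in late spermatocytes on the log2 scale. Among all genes with at least 50 UMIs, 6.04% were lower in the cKO by over 1.5-fold and 3.24% higher in late spermatocytes, and 6.65% and 2.43% in round spermatids. On the log2 scale (cKO over control), ratios in round spermatids ran from -0.26 for Acr (-0.32 to -0.20) to 0.19 for Spam1 (0.12 to 0.26), with a median of 0.03 beside 0.02 for all genes. With stages from clusters, which keep only the cluster led by 1700041C23Rik as round spermatids, Spam1 in round spermatids was at -0.16. Round spermatids came mostly from 2 clusters, led by 1700041C23Rik (555 control and 741 cKO cells) and by Pex5l (477 and 280). Within them, over all cells of each cluster whatever their stage, Spam1 was at -0.16 (the value just given) and 0.14. Zpbp2, at 0.18 over the stage, was at -0.0076 and 0.042. Acrbp, at 0.10 over the stage, was at 0.047 (-0.0050 to 0.099) and 0.060 (-0.020 to 0.14). Zpbp, at 0.15 over the stage, was at 0.039 (-0.011 to 0.088) and 0.12 (0.045 to 0.20). In late spermatocytes the ratios ran from -0.39 for Dpy19l2 (-0.44 to -0.34) to 0.44 for Spaca1 (0.39 to 0.48), with a median of 0.19 beside -0.03 for all genes.

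Acr and Dpy19l2 were the 2 genes whose values, as counted, were lower in the cKO in every stage and along all bins of both axes. Acr was lower in 5 of 5 stages and in 19 of 19 clusters with at least 50 cells of each library. Among these were clusters where Acr was near background, that of Leydig cells (-0.15, -0.78 to 0.47) and that led by Defb19 (-0.64). In early spermatocytes the stage interval of Acr included 0 (-0.24 to 0.073). The intervals of Acr lay apart from the control in 7 of the 10 bins from late spermatocyte to round spermatid. Dpy19l2 was lower in 5 of 5 stages, in 18 of 19 clusters (all but that of Leydig cells) and, with intervals apart, in 8 of those 10 bins. Its stage intervals included 0 in spermatogonia (-1.14 to 0.063) and early spermatocytes (-0.33 to 0.099). Its sign held under all alternatives run in late spermatocytes and round spermatids and turned under 3, 3 and 1 of 10 in spermatogonia, early spermatocytes and elongating spermatids, where the highest values were 0.57 (a gate at 2 times the next score), 0.18 and 2.10 (both with free RNA subtracted, which has a limit in these stages given below). Acr turned once, to 0.075 in early spermatocytes with TMM factors. Within clusters the median log2 ratio was -0.27 for Acr and -0.40 for Dpy19l2. Ratios of this size were common: in round spermatids 22.4% of all genes had a lower ratio than Acr, and in late spermatocytes 15.2% had a lower ratio than Dpy19l2. Of all genes 5218 of 8748 were below 0 in spermatogonia, 7166 of 11331 in early spermatocytes and 8122 of 15063 in late spermatocytes. In round spermatids 6246 of 13104 were, and in elongating spermatids 10454 of 14701. How many were below 0 in every stage, in as many clusters or in every bin was not counted. With 1 library each, a difference between genotypes and a difference between these libraries cannot be told apart.

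**Figure D3:**
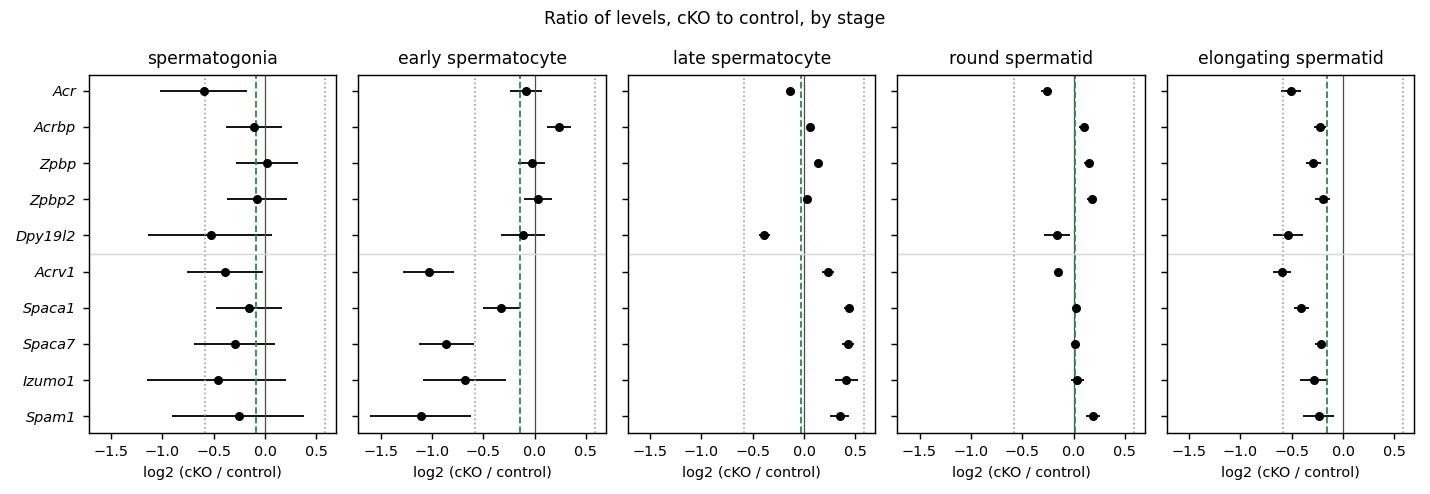
Ratio of CPM in the cKO to the control on the log2 scale for each gene (rows) and stage (panels), with 95% counting intervals; dotted lines mark 1.5-fold, the green dashed line is the median of all genes with at least 50 UMIs. In late spermatocytes and round spermatids all 10 genes lie between the dotted lines, from -0.39 to 0.44.

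The late set stood higher in cKO late spermatocytes: Spaca1 at 0.44, Spaca7 at 0.43, Izumo1 at 0.41, Spam1 at 0.35 and Acrv1 at 0.23 on the log2 scale, 5 of 5 above 0; with a gate at 2 times the next score Spam1 was at -0.017. The markers of round spermatids moved with them: 6 of their 8 were above 0 in the same cells, with a median of 0.46; their part in the result was not tested. The cells of this stage came from the same clusters in different numbers: the cluster led by Ccna1 held 688 control and 462 cKO cells, that with Piwil1 among its top genes 576 and 321, and that led by 1700001F09Rik 467 and 513. Within the 1700001F09Rik cluster log2 ratios were -0.02 for Spaca1, 0.02 for Spaca7, -0.04 for Izumo1, -0.17 for Spam1 and -0.24 for Acrv1. Over the 4 clusters that held most late spermatocytes, 15 of 20 such ratios of the late set were below 0 and the highest was 0.14. In these 4, Acrbp (0.06 over the stage) was at 0.022, -0.036, -0.0032 and -0.067, each with an interval that included 0. Zpbp (0.14 over the stage) was at 0.071, 0.057, -0.016 and -0.096. In 2 further clusters, led by Stambp and by 1700041C23Rik, 9 of 10 ratios of the late set were below 0, from -0.61 to 0.093. Ratios within clusters cover all cells of a cluster, and these 2 held mostly other stages. The Stambp cluster held 119 control and 111 cKO late spermatocytes beside 370 and 386 early spermatocytes. That led by 1700041C23Rik held 95 and 148 late spermatocytes beside 555 and 741 round spermatids. In 2 clusters with fewer late spermatocytes, led by Lypd10 and Hbb-bs, 10 of 10 such ratios were above 0, from 0.15 to 0.74. The Lypd10 cluster held 93 control and 82 cKO late spermatocytes beside 83 and 63 elongating spermatids. That led by Hbb-bs held 94 and 63 late spermatocytes beside 220 and 93 elongating spermatids. The share of all genes below 0 within clusters was not counted.

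Past 1.5-fold, 6 of the 50 pairs of gene and stage were found, all lower in the cKO and all in stages where these RNAs were near background. In early spermatocytes 4 of 10 genes were lower, Spam1 at -1.10 (136 against 49 UMIs), Acrv1 at -1.03 (490 against 186), Spaca7 at -0.86 (391 against 167) and Izumo1 at -0.68 (161 against 78), beside 17.1% of all genes lower by that fold. In spermatogonia Acr was lower at -0.60 (157 against 69 UMIs), 1 of 10 beside 9.84%; within the cluster that held most of these cells (240 of 303 control and 208 of 234 cKO) it was at -0.34, with an interval from -0.71 to 0.025. In elongating spermatids Acrv1 was lower at -0.59, 1 of 10 beside 10.8%. Few genes of any kind were higher by that fold: 160 of 11331 in early spermatocytes, 253 of 8748 in spermatogonia and 103 of 14701 in elongating spermatids. In early spermatocytes 8 of 8 round spermatid markers and 11 of 11 elongating spermatid markers were lower in the cKO, with median log2 ratios of -0.70 and -0.62. The markers of early spermatocytes themselves had a median of -0.50 (8 of 10 below 0) and those of spermatogonia -0.74 (4 of 6). Late spermatocyte markers were at -0.06 (4 of 8), and 7166 of all 11331 genes were below 0. Free RNA, estimated from spermatid markers in Leydig cells, came to 6053 UMIs per cell in the control and 3961 in the cKO, or 65.7% and 50.0% of the UMIs of 99 and 97 Leydig cells. The control value exceeds the median depth of control spermatogonia (5971 UMIs) and early spermatocytes (5838) and is close to that of elongating spermatids (6444.5), so the estimate cannot hold for many of these cells, and subtracted values in these 3 stages are not read as levels. With it subtracted 36 of the 50 pairs had a ratio, and 10 of these were past 1.5-fold, 8 higher and 2 lower in the cKO. All 10 genes remained above 0 CPM in late spermatocytes and round spermatids. With a gate at 2 times the next score, Izumo1 and Spam1 in early spermatocytes were at 0.39 and 0.017. The cells of this stage also lay in 3 main clusters in different numbers, 370 control and 386 cKO cells in that led by Stambp, 291 and 221 in that led by Dazl, and 364 and 81 in that led by Hist1h1a. Within these clusters Spam1 was at -0.12, -0.57 and -0.27, Acrv1 at -0.61, -0.59 and 0.33, Spaca7 at -0.37, -0.65 and -0.023, and Izumo1 at -0.21, -0.26 and 0.53.

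In elongating spermatids all 10 genes were below 0 on the log2 scale, from -0.59 to -0.20 with a median of -0.29. Of all 14701 genes there 10454 were below 0, with a median of -0.15, and the median of the 11 elongating spermatid markers was 0.08. The gate drew on further clusters in different numbers, among them 128 control and 28 cKO cells of the cluster led by Pex5l and 220 and 93 of that led by Hbb-bs. It also took 334 control and 193 cKO cells of the cluster led by Defb19, which supplied Sertoli cells as well. In the 3 clusters that held most elongating spermatids 29 of 30 ratios of the 10 genes were below 0, from -0.71 to 0.041. These ratios repeat the same genes and libraries, and the share of all genes below 0 within these clusters was not counted. The TMM scaling factors of edgeR, which balance the libraries on their typical gene, move ratios in this stage by 0.13 and in early spermatocytes by 0.16. With free RNA subtracted, under the limit given above, the sign of 4 of the 7 genes left in both libraries turned (Acrbp, Spam1, Izumo1 and Dpy19l2). Relative to the TMM shift Acrv1 was at -0.46 in elongating spermatids and within 1.5-fold, while Spam1, Acrv1 and Spaca7 stayed past it in early spermatocytes. Other settings brought these within it there: Acrv1 was at -0.20 with stages from clusters and Spaca7 at -0.35 with a minimum of 5000 UMIs. Stages from clusters leave out the cluster led by Stambp, with 370 control and 386 cKO early spermatocytes, where Acrv1 was at -0.61.

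Other genes of the acrosome were taken as lists for biogenesis, for contents and membrane and for gamete fusion. Of 33 such genes found in the files, 23 were highest in control round spermatids: 5 of 11 for acrosome biogenesis, 10 of 13 for contents and membrane and 8 of 9 for gamete fusion. The biogenesis genes, which include vesicle traffic factors of the Golgi, were spread more widely, with 4 highest in early spermatocytes. In round spermatids 0 of these 33 genes were past 1.5-fold, beside 6.65% of all genes lower and 2.43% higher, and list medians were -0.25, 0.06 and 0.09 on the log2 scale. In late spermatocytes 2 of 11 biogenesis genes were lower and 0 higher, while 1 of 13 and 1 of 9 genes of the other lists were higher and 0 lower, beside 6.04% of all genes lower and 3.24% higher, with medians of -0.25, 0.45 and 0.36. The latter 2 medians lie beside that of the round spermatid markers (0.46), as for the late set above. In spermatogonia 6 of 11, 1 of 12 and 0 of 5 measured genes of the 3 lists were lower, beside 9.84% of all genes. In the same cells 11 of 11 elongating spermatid markers and 7 of 8 round spermatid markers were below 0, with medians of -0.56 and -0.41, and their part in the result was not tested. In early spermatocytes 5 of 11, 3 of 13 and 2 of 9 were lower beside 17.1%, and in elongating spermatids 1 of 11, 0 of 13 and 0 of 9 beside 10.8%. None was higher in these 3 stages. Of all genes 253 of 8748, 160 of 11331 and 103 of 14701 were, in the same order.

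Gopc, a Golgi protein needed to form the acrosome, was lower by over 1.5-fold in 4 of 5 stages, with 2116 UMIs in control and 832 in cKO late spermatocytes (40.7 and 21.4 CPM, log2 ratio -0.93). It was not past 1.5-fold in round spermatids. Cylc1, a protein of the sperm head cytoskeleton, was lower in spermatogonia (-1.39) and early spermatocytes (-0.97), where it had 134 against 34 and 319 against 126 UMIs. Izumo3 (-1.14), Dcst1 (-0.99) and Eqtn (-0.92), all genes for sperm membrane proteins, were lower in early spermatocytes. The round and elongating spermatid markers, with medians of -0.70 and -0.62 in those cells, moved with these 3 genes and Cylc1, as did free RNA, and their part in the result was not tested. Tmem95, a membrane protein required for fusion with the egg, was higher in late spermatocytes, with 10.8 against 19.4 CPM (0.84).

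The genes most like each of the 10 across 40 points, each a cluster in a library, were found by Pearson correlation of log2(CPM + 1) over 8488 genes. The points share depth, free RNA and the axis of differentiation, so high values are common and carry no p-value. Acrv1 was most like Zp3r (r = 0.985), itself a gene for an acrosomal matrix protein, and Spaca1 like Lyzl6 (0.988). Spaca7 was most like 4930578I06Rik (0.989), Izumo1 like Sox5 (0.977) and Spam1 like Gm20268 (0.971). In the early set, Acr was most like 1700019A02Rik (0.978), Acrbp like 1700108J01Rik (0.979), Zpbp like Cfap45 (0.984), Zpbp2 like Toporsl (0.981) and Dpy19l2 like Ak9 (0.977). Among the 10 themselves, r was 0.98 for Acrv1 with Spaca1, 0.94 for Zpbp2 with Dpy19l2 and -0.22 for Spaca7 with Dpy19l2.

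In sorted cKIT+ spermatogonia, cells that precede meiosis, open chromatin was called in every library at the start sites of 3 genes, all of the early set. Of the 9 genes with a start site in that table (Acr is not among them), Zpbp, Zpbp2 and Dpy19l2 had an ATAC peak within 1 kb in 5 of 5 libraries, where 28.6% to 49.4% of all genes had one. Acrbp had one in 1 library (control 2), Spaca1 in 2 (control 2 and cKO 3) and Izumo1 in 1 (cKO 3), and Acrv1, Spaca7 and Spam1 in none. The genes with a peak in every library were thus 3 of the 4 early genes with a start site and 0 of the 5 late ones, a description with no test. Of all genes 26.2% had an ATAC peak in every library. The 2 libraries that gave the additional peaks held the most peaks, 33250 (control 2) and 40497 (cKO 3), against 14635 to 19118 in the other 3.

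Controls had 3 and 5 of 9 genes with an ATAC peak and cKO libraries 3, 3 and 5, so the genotypes overlapped. In the same order 36.9%, 46.3%, 28.6%, 35.1% and 49.4% of 27025 genes had one. In the first control library the peak at Zpbp2 spanned chr11:98550853-98551420 and that at Dpy19l2 chr9:24695898-24696374, and both overlap the sequences printed above. The peak at Zpbp spanned chr11:11461633-11462517.

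H3K27me3 was called at Dpy19l2 in 5 of 5 libraries, both control and cKO, at Spaca7 in 3 (control 1, control 2 and cKO 3) and at Zpbp2 in 2 (control 2 and cKO 3). In control 1 the region at Dpy19l2 ran over chr9:24695642-24697325 and in cKO 1 over chr9:24695738-24696993. The other 6 genes had none. By library, 2 and 3 of 9 genes carried the mark in controls and 1, 1 and 3 in the cKO, beside 12.2%, 15%, 7.91%, 10% and 13.7% of all genes, and 0 of 9 in the IgG library (0.625%). The genotypes again overlapped. Dpy19l2 was the 1 gene of the 9 with both an ATAC peak and an H3K27me3 region in every library, as did 0.448% of all genes, and 6.12% had H3K27me3 in every library. In the upper 50% of scores it lost both in cKO 1. The sorted cells of a library are a population, and whether both lay on the same allele was not tested.

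**Figure D4:**
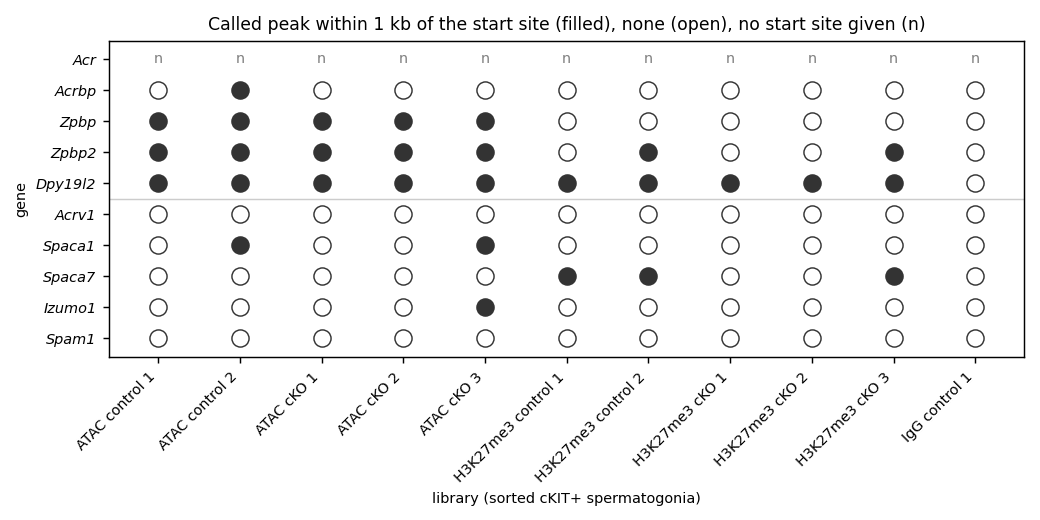
Called peak within 1 kb of the start site (filled circle) or none (open circle) for each gene and each library from sorted cKIT+ spermatogonia; n marks Acr, which has no start site in the table used, and the grey line divides the early from the late set. Zpbp, Zpbp2 and Dpy19l2 have an ATAC peak in 5 of 5 libraries, and Dpy19l2 has H3K27me3 in 5 of 5.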

How the data were processed

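The 10 genes and the lists used were chosen with earlier results of these data known. The authors deposited single-cell UMI counts per gene for every barcode, made with Cell Ranger 4 per the file headers, on build mm10 per the submitters' processing notes. Each cell was gated to the stage with the highest mean marker score, log1p of counts per 10000, divided by its 99th percentile, with 48 of 50 germ-cell markers found in the files. UMIs were summed per stage and scaled to CPM, ratios carry exact conditional intervals and levels exact Poisson intervals, and shares exact Clopper-Pearson intervals (95%, counting error only). A ratio counts as past the fold at over 1.5 with at least 50 UMIs in both libraries together. The scripts were tested on simulated data. Doublets were called with Scrublet in scanpy 1.11.5 (591 control and 528 cKO cells) and kept in the main values; clusters were built with leidenalg 0.10.2 without the 10 genes. Named genes are the 10, the 3 most correlated with each (the first is printed) and the 6 of the other lists with the largest ratio. The analysis used scipy 1.17.1 and, for scaling factors, edgeR 4.0.16.

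The ATAC lists deposited by the authors hold broadPeak regions with a score, a fold enrichment (a ratio) and a −log10 q per peak; MACS2 is named in the submitters' processing notes. The CUT&Tag lists deposited by the authors give signal per region in the layout of SEACR, also named there. Both were called per library. Regions were matched to RefSeq start sites on GRCm38.p6, with an overlap of 1 bp within 1 kb; ranks used the score for ATAC and the summed signal for CUT&Tag. Bulk testis RNA is not analysed here, since no table used here pairs its transcripts with genes.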

Additional observations from a re-analysis of the deposited data

How the results depend on the processing

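The number of genes highest in round spermatids was 7 in each library and stayed at 7 under 6 alternatives (minimum of 2000 or 5000 UMIs, doublets left out, at most 5% mitochondrial UMIs, a gate at 1.2 times the next score, and free RNA subtracted) and was 8 in both with stages from clusters. The count of 6 of 50 pairs of gene and stage past 1.5-fold was 3 with a minimum of 5000 UMIs. It was 9 with 2000 UMIs or a mean over cells. With at most 5% mitochondrial UMIs it was 5 (Izumo1 in spermatogonia higher, at 0.61). Stages from clusters gave 2, leaving out doublets 10 and TMM factors 3. A gate at 1.2 times the next score gave 7, and a gate at 2 times gave 4 of the 40 pairs left. Free RNA subtraction gave 10 of the 36 pairs with a ratio. The cause of these shifts was not tested. All 6 were lower in the cKO, as were the 10 without doublets, whereas 8 of the 10 with free RNA subtracted were higher, up to 3.06 for Acrbp and 2.20 for Zpbp in early spermatocytes, where the free RNA estimate exceeds the median depth of control cells. In late spermatocytes and round spermatids the count of 0 became 2 with free RNA subtracted (Spaca7 at 0.72 and Izumo1 at 0.68 in late spermatocytes). In early spermatocytes the ratio of Izumo1 turned to 0.046 with stages from clusters and 0.39 with a gate at 2 times the next score, and that of Spam1 to 0.017 with that gate. Stages from clusters left out 1723 control and 1264 cKO cells of clusters given no stage, among them those led by Stambp and Pex5l. Acr kept its sign under all alternatives run in late spermatocytes (-0.20 to -0.11) and round spermatids (-0.37 to -0.25), as did Dpy19l2 (-0.46 to -0.35 and -0.44 to -0.11). At a fold of 2, 4 of the other acrosome pairs were called in place of 22. In the upper 50% of scores, genes with an H3K27me3 region in every library numbered 0 in place of 1, and genes with an ATAC peak in every library 2 in place of 3, since Dpy19l2 was lost in cKO 1 from both. Leaving out each library in turn left 3 genes with an ATAC peak in every library (3 to 3) and 1 with H3K27me3 (1 to 1). The gate at 2 times the next score left 1 and 2 round spermatids and gave no level there. The alternatives for bulk testis RNA were not run. No paired analysis was possible because the single-cell libraries have 1 sample per genotype and peaks are given as present or absent, with no test. Depth limits genes near background.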
